A study of Mus musculus with 8 samples.

Results

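The mitochondrial ribosomal protein genes were examined in mouse iMLL-AF9 cells, bone marrow cells that carry an inducible MLL-AF9 fusion oncogene, after treatment with IOX5 or with its vehicle DMSO. Members were the protein-coding genes whose symbol in the GENCODE M21 annotation begins with Mrpl or Mrps followed by a number, pseudogene symbols left out. This gave 78 of the 54838 genes listed, of which 49 carry a large subunit (Mrpl) and 29 a small subunit (Mrps) name. IOX5 is an inhibitor of PHD2, one of the prolyl hydroxylases that mark the HIF transcription factors for degradation.

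Poly(A)-selected RNA was sequenced with strand kept in 4 DMSO and 4 IOX5 samples, numbered 1 to 4 in each group. The labels give every sample the genotype WT and call the cells leukaemic stem cells from bone marrow, while the design text calls them preleukaemic. They state neither the dose and duration of IOX5, nor the age of the mice, nor whether the samples came from separate cultures or animals, so p-values measure only the spread between these samples. In bulk RNA a change in the kind of cells present and a change in RNA per cell cannot be told apart.

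Between 11351507 and 14116054 reads per sample were assigned to genes, and 12405 genes had enough reads to be tested. All 9 hematopoietic and myeloid markers examined, among them Ptprc, Kit, Mpo and Hoxa9, were detected in every sample at 44.0 to 3915 CPM, read counts scaled to the size of each library. Several had higher means with IOX5, such as Itgam (70.5 CPM in DMSO and 107 CPM in IOX5), Cebpa (115 and 163) and Kit (74.7 and 97.5). The means of Ptprc (449 and 439) and Hoxa9 (250 and 242) were slightly lower. Among markers of other blood lineages the T cell gene Cd3e had 1 read in all samples together, while red cell genes were detected. Hbb-bs, a beta globin, was at a mean of 6.05 CPM in DMSO and 12.1 CPM in IOX5, Gata1 at 8.50 and 12.1 CPM, and Hba-a1 at no more than 2.17 CPM. Of markers from outside the blood, Pecam1, which blood cells also express, was at 142 and 189 CPM, and Col1a1 and Epcam reached at most 1.22 and 7.69 CPM. The part of such cells in the results below was not tested. None of the markers examined separates leukemic stem cells from other myeloid cells. With IOX5, Pdk1, a HIF target that restrains entry of pyruvate into mitochondria, rose by 0.67 on the log2 scale (adjusted p = 0.0157, edgeR), and Bnip3, a HIF target that acts in mitophagy, by 0.98 (adjusted p = 0.0469, edgeR). Another target, Egln3, had a log2 fold change of 0.88 and did not pass the test (adjusted p = 0.136, edgeR).

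Mitochondria keep a ribosome of their own, built from RNA encoded in mitochondrial DNA and from proteins that are all encoded in the nucleus, made in the cytosol and imported. It translates only the few mitochondrially encoded subunits of the respiratory chain and ATP synthase. Its small subunit decodes the messenger and its large subunit joins the amino acids. Many of its proteins have counterparts in bacterial ribosomes, while others exist only in mitochondria. Leukemic cells of the myeloid lineage are known to depend on mitochondrial translation.

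The promoters of these genes are known to carry sites for ETS family factors, NRF1 and YY1. The sequences before the transcription start are shown for 6 of the members described below that hold such words close to the start. Mrpl34, Mrpl48 and Mrps18a also hold an ETS word close to a start and are not shown. Each is the 80 bases upstream of the RefSeq start on GRCm38.p6, written 5′ to 3′ on the strand of the gene. Capitals mark CCGGAAG, the core of an ETS site, or its reverse complement CTTCCGG, and in Mrpl9 the NRF1 core GCATGCGC overlapping its own reverse complement. The windows were chr9:105053188-105053267 (+) for Mrpl3, chr11:115403672-115403751 (+) for Mrpl58, chr9:98601680-98601759 (−) for Mrps22, chr2:130563677-130563756 (+) for Mrps26, chr13:99344706-99344785 (+) for Mrps27 and chr3:94443256-94443335 (+) for Mrpl9.
Mrpl3: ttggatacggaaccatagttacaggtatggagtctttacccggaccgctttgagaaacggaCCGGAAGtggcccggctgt
Mrpl58: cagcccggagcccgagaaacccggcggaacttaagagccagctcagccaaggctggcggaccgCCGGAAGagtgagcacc
Mrps22: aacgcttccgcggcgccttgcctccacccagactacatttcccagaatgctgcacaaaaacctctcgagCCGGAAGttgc
Mrps26: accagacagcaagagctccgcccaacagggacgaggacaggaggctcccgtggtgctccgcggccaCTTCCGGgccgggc
Mrps27: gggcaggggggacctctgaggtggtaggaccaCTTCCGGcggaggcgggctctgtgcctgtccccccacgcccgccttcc
Mrpl9: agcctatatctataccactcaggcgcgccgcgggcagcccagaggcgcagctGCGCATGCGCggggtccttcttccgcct

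In the window from 250 bases before to 50 bases after the start, 69 of the 78 members had a RefSeq promoter and both strands were searched. The ETS word CCGGAAG was present in 26 members (37.7%), against 21.4% of the tested genes and 9.93% of all genes with a promoter. The YY1 word AAGATGGC was present in 17.4% of members, against 5.59% of tested genes, and the NRF1 core GCATGCGC in 11.6%, against 6.12%. The HIF core ACGTG, which is also contained in the E-box CACGTG, was found in 23.2% of members and in 30.2% of tested genes. The E-box itself was found in 7.25% of members and 12.1% of tested genes. None of these words was found in the windows of Mrps5, Mrpl40, Mrpl46 and Mrpl12, 4 of the members described in detail below. Members with and without the ETS word had median log2 fold changes of −0.078 and −0.072. The medians with and without were −0.11 and −0.068 for the YY1 word and −0.048 and −0.076 for the NRF1 core. They were −0.089 and −0.066 for the HIF core and −0.082 and −0.071 for the E-box. Few members held some of these words, and the differences were not tested.

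In DMSO the members were expressed at a middle range, from 12.6 to 144 CPM with a median of 45.9, against a median of 31.99 over all tested genes. Per kilobase of annotated exon the large subunit genes had a median of 21.1 CPM and the small subunit genes a median of 13.4. The highest were Mrpl18, whose protein contacts 5S rRNA in bacterial ribosomes, at 103 ± 9.1 CPM per kb (SD, n = 4), Mrpl12, which forms the stalk that receives translation factors, at 81.5 ± 5.5, and Mrpl2, which sits close to the peptidyl transferase center, at 55.1 ± 3.0. Next came Mrps23 at 54.2 ± 4.0, which lay within the spread of Mrpl2. The lowest were Mrpl48 at 4.81 ± 0.26, Mrps35 at 4.41 ± 0.27 and Mrpl23 at 4.14 ± 0.33, and the last pair lay within each other's SD. These lengths count every annotated exon, so genes with many rare exons rank low. The top of the order changed as well. With the length of the principal transcript, Mrpl33 came first at 180 ± 21 CPM per kb, Mrpl18 second at 118 ± 10, and Mrpl20 at 112 ± 5.0 and Mrpl42 at 102 ± 5.6 stood above Mrpl12 at 94.8 ± 6.4, while Mrpl2 was at 62.6 ± 3.5. On this scale Mrpl23 was at 29.2 CPM per kb, while Mrpl48 and Mrps35 remained near the bottom at 9.15 each. The coefficient of variation across DMSO samples was 1.49% to 14.4%, with a median of 6.65%. The IOX5 samples are not part of this figure.

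One member, Mrpl53, had 4 reads in all samples together and was not tested. Of its 790 exon bases, 695 overlap Gm42688, annotated on the same strand, and 77.5% of its 85-base words are shared with it, so this value cannot be read as low expression. The other 77 members were tested.

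No single member passed the test between IOX5 and DMSO, and most members lay slightly below 0. Of 77 members, 59 had a negative log2 fold change, and the median was −0.075, a difference of about −5.07%, while the median over all 12405 genes was 0.017 and 47.2% of them lay below 0. The quartiles of the members were −0.13 and −0.011, and 40 of the 77 lay within 0.1 of 0. At an adjusted p under 0.05 (edgeR), 0 members were lower, where 1.25% of all genes were, and 0 were higher, where 0.774% were. At an unadjusted p under 0.05 (edgeR), 5 of 77 members were lower and 0 higher, against 1392 lower and 1114 higher among all 12405 genes. Both shares of the members were below the background. DESeq2 also called 0 members in either direction, where it called 4.85% of all genes lower and 3.94% higher. The standard errors of the members ranged from 0.059 to 0.14, so differences of the size of the median were not detectable gene by gene.

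**Figure D1:**
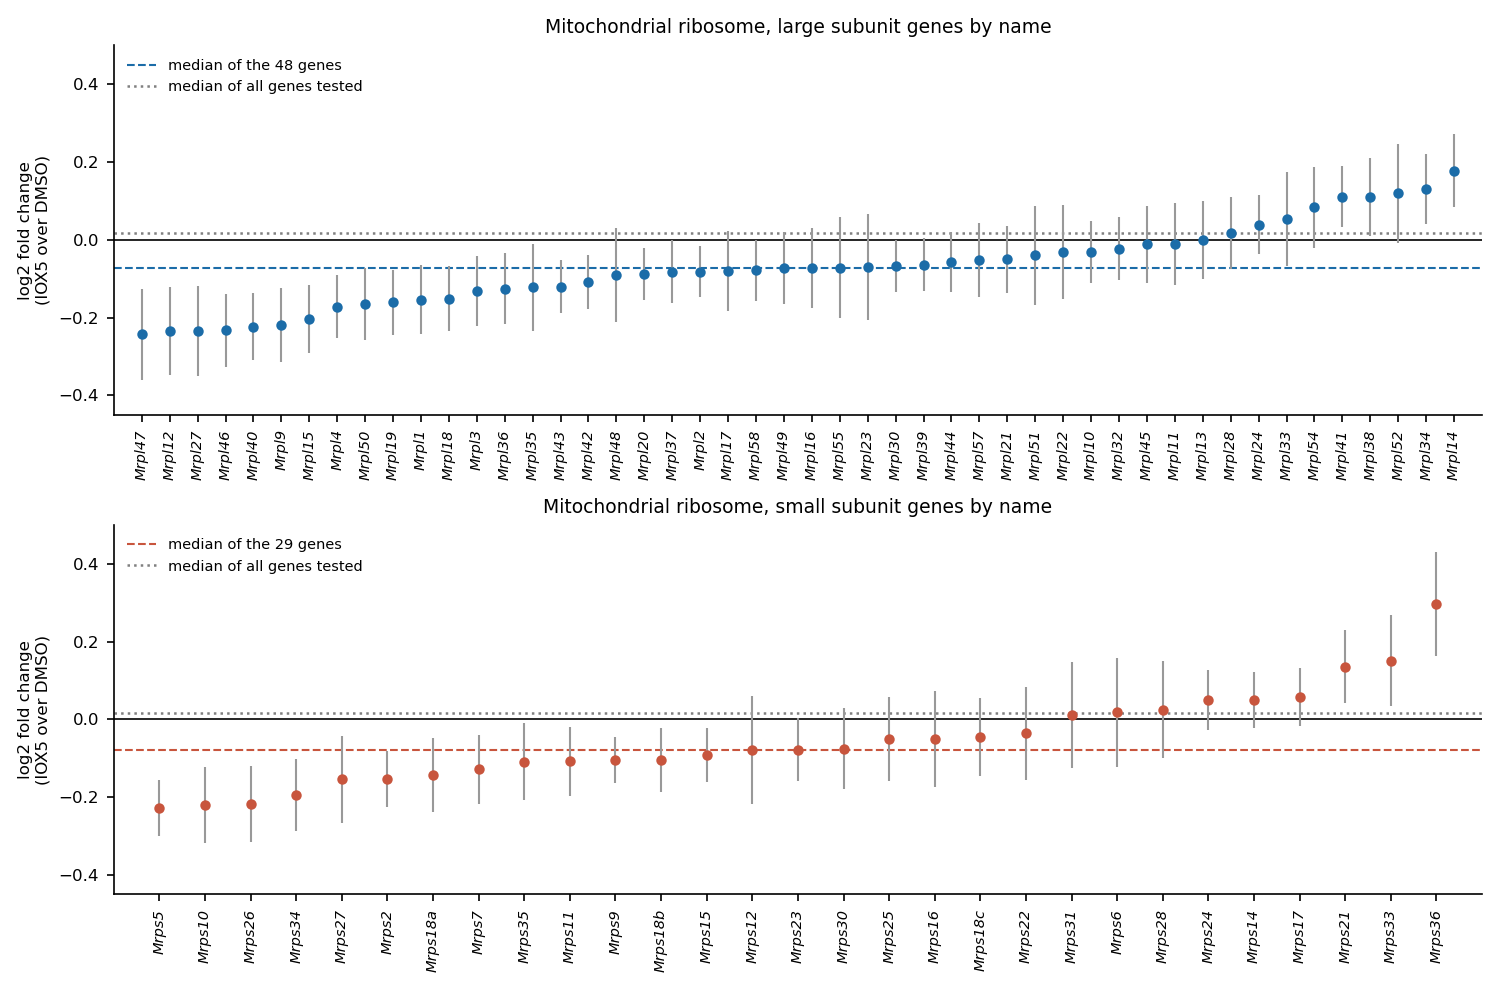
Log2 fold change of each of the 77 members tested, IOX5 over DMSO, with its standard error from edgeR (n = 4 against 4); the upper panel holds the 48 large subunit genes and the lower the 29 small subunit genes by name. Dashed lines are the subunit medians (−0.072 and −0.078), which lie below the dotted median of all genes (0.017).

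The member with the smallest p was Mrps5 (ENSMUSG00000027374, chr2:127587222-127606829, + strand, GRCm38), a small subunit protein at the messenger entry side that is shared with bacteria. Its level was 55.2, 61.3, 52.8 and 54.3 CPM in DMSO samples 1 to 4 and 46.1, 46.5, 52.2 and 46.0 CPM in IOX5 samples 1 to 4. The groups did not overlap, although the third IOX5 sample came close to the lowest DMSO sample. The log2 fold change was −0.23 ± 0.072 (SE), with an exact permutation p of 0.0286, the smallest that 4 against 4 samples allow. The adjusted p was 0.128 in the fit without pairing and 0.0493 when same-numbered samples were paired (edgeR), so the call depended on the pairing. With both samples of 1 number left out in turn it was 0.0632 to 0.149.

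Among large subunit genes the smallest p-values belonged to Mrpl40, Mrpl46, Mrpl15, Mrpl9 and Mrpl4. Mrpl40 (chr16:18872018-18876862, − strand), a protein found only in mitochondrial ribosomes, was at 46.2, 53.0, 47.9 and 52.4 CPM in DMSO and 45.2, 41.1, 37.8 and 46.8 CPM in IOX5. Only the fourth IOX5 sample exceeded a DMSO sample. Its log2 fold change was −0.22 ± 0.086 (adjusted p = 0.192, edgeR). Mrpl46 (chr7:78775236-78783531, − strand), also specific to mitochondria, was at 32.5, 38.0, 31.1 and 31.3 CPM in DMSO and 26.5, 27.97, 27.3 and 31.4 CPM in IOX5, again with only IOX5 sample 4 inside the DMSO range. Its log2 fold change was −0.23 ± 0.094 (adjusted p = 0.212, edgeR). Mrpl46 lies head to head with Mrps11, a small subunit gene that begins inside it on the opposite strand, and Mrps11 had a log2 fold change of −0.11 ± 0.088. The libraries keep strand, so reads from the 173 exon bases they share could be assigned.

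Mrpl15 (chr1:4773206-4785739, − strand) and Mrpl9 (chr3:94443318-94451130, + strand) are both shared with bacteria. Mrpl15 was at 74.9, 80.5, 76.5 and 75.4 CPM in DMSO and 66.3, 59.0, 63.2 and 78.1 CPM in IOX5, a log2 fold change of −0.20 ± 0.087. Mrpl9, whose promoter is printed above, was at 83.7, 98.9, 88.6 and 89.3 CPM in DMSO and 70.2, 73.5, 73.9 and 91.9 CPM in IOX5, a log2 fold change of −0.22 ± 0.095. In both genes IOX5 samples 1 to 3 lay below every DMSO sample and IOX5 sample 4 lay among them. Mrpl4 (chr9:21002738-21008839, + strand), a protein of the nascent chain exit tunnel, was at 52.1, 51.3, 49.97 and 49.7 CPM in DMSO and 40.9, 48.8, 41.04 and 49.6 CPM in IOX5. These groups did not overlap, but by a margin far smaller than the spread within IOX5 (log2 fold change −0.17 ± 0.081, adjusted p = 0.276, edgeR).

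Mrpl12 (chr11:120484613-120489065, + strand) showed the influence of a single sample most plainly. It was at 117, 136, 125 and 120 CPM in DMSO and at 98.6, 94.4, 98.2 and 133 CPM in IOX5. The first 3 IOX5 samples were tightly grouped below DMSO and the fourth was near the top of the DMSO range. The log2 fold change was −0.24 ± 0.11 over all samples (adjusted p = 0.286, edgeR) and −0.36 without IOX5 sample 4 (adjusted p = 0.0373, edgeR).

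In the small subunit, Mrps10, which is shared with bacteria, was at 49.7, 49.9, 46.3 and 51.3 CPM in DMSO and 39.2, 37.4, 42.1 and 50.6 CPM in IOX5 (log2 fold change −0.22 ± 0.098). Mrps26, a protein specific to mitochondria with an ETS word close to its start, was at 69.0, 82.5, 69.1 and 69.3 CPM in DMSO and 56.9, 63.6, 56.6 and 72.2 CPM in IOX5 (log2 fold change −0.22 ± 0.098). Both showed the arrangement seen for Mrpl15 and Mrpl9, with IOX5 samples 1 to 3 below all DMSO samples. Mrps2, also shared with bacteria, was at 56.3 ± 2.3 CPM in DMSO and 50.7 ± 4.2 in IOX5 (log2 fold change −0.15 ± 0.072).

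A minority of members lay above 0. Mrps36 (chr13:100735955-100744659, − strand) carries a ribosomal name, but its protein is also known as KGD4, a subunit of the 2-oxoglutarate dehydrogenase complex of the tricarboxylic acid cycle. It was at 13.3, 12.8, 11.6 and 13.8 CPM in DMSO and 15.1, 14.9, 13.7 and 19.7 CPM in IOX5, higher in all 4 pairs of samples with the same number. Its log2 fold change of 0.30 ± 0.13 was the highest of the members, was 0.17 without IOX5 sample 4, and did not pass the test (adjusted p = 0.257, edgeR; 0.0636 with pairing). It shares 9.77% of its 85-base words with pseudogene copies, so part of its count is uncertain. Mrpl14, at the interface between the subunits, was at 16.9, 20.5, 18.5 and 19.8 CPM in DMSO and 20.9, 20.7, 20.9 and 23.2 CPM in IOX5, without overlap (log2 fold change 0.18 ± 0.094, adjusted p = 0.331, edgeR). Mrps21 and Mrpl34, both short proteins shared with bacteria, had log2 fold changes of 0.14 ± 0.094 and 0.13 ± 0.090, with overlapping groups. The values of Mrpl14, Mrps21 and Mrpl34 turned slightly negative once a trend of fold change with gene length and GC content was removed, to −0.013, −0.024 and −0.061, while that of Mrps36 was 0.20.

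**Figure D2:**
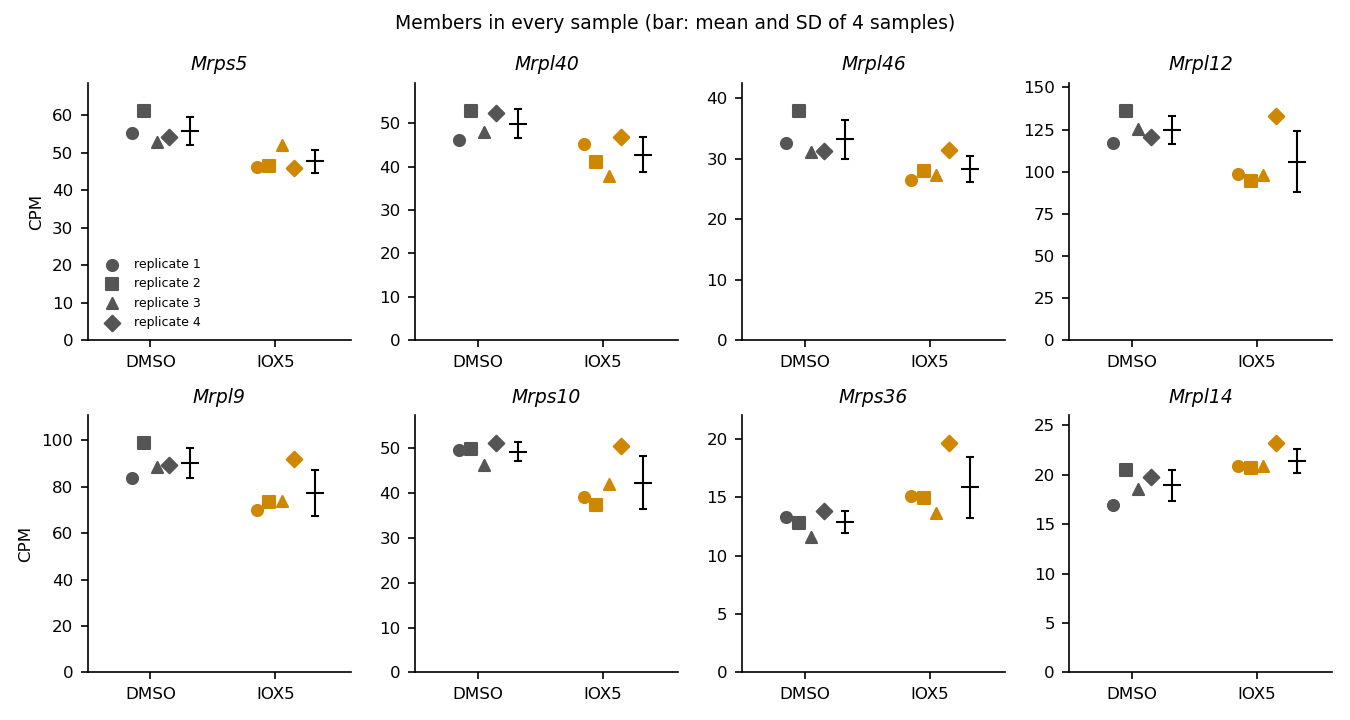
CPM of 8 members in every sample, marker shape giving the replicate number, with the mean and SD of 4 samples beside each group. IOX5 sample 4 (diamond) is the highest IOX5 sample in each panel other than Mrps5.

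The panel of members with well-known roles includes Mrpl12 and Mrps36, described above, with log2 fold changes of −0.24 and 0.30. It also includes Mrps18a, Mrps18b, Mrps18c and Mrps30, described below. The other panel members had log2 fold changes from −0.15 to −0.011. Mrpl3, which reaches toward the peptidyl transferase center, was at 75.9 ± 8.5 CPM in DMSO and 69.3 ± 4.8 in IOX5 (log2 fold change −0.13). Mrpl10 and Mrpl11, at the base of the stalk that carries Mrpl12, differed by −0.030 and −0.011, Mrpl37 by −0.082 and Mrpl44 by −0.057. Mrpl45, which tethers the ribosome to the inner membrane, was at 63.0 ± 3.6 CPM and 62.5 ± 8.8 CPM, and Mrpl58, a peptidyl-tRNA hydrolase built into the large subunit, at 33.6 ± 1.6 CPM and 31.8 ± 2.3 CPM. Mrps12, at the decoding center, had a log2 fold change of −0.078 and Mrps22 one of −0.036. Mrps27, a pentatricopeptide repeat protein, had a larger one of −0.15, from 45.7 ± 4.7 to 41.1 ± 5.8 CPM. None of these members passed the test, and each had overlapping groups.

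The 3 homologs of bacterial protein S18 are placed differently in the mitochondrial ribosome, Mrps18c and Mrps18b in the small subunit and Mrps18a in the large. Mrps18c, the form named as the counterpart of bacterial S18, was at 36.2 ± 3.3 CPM in DMSO and 35.1 ± 3.7 in IOX5. Mrps18b was at 38.4 ± 3.4 and 35.8 ± 1.9 CPM, and Mrps18a at 34.8 ± 2.7 and 31.6 ± 3.0 CPM. The 3 genes were thus expressed at similar counts, and their log2 fold changes of −0.046, −0.10 and −0.14 had standard errors of 0.082 to 0.10. Counts of Mrps18b and Mrps18c are less certain, since 11.1% and 6.97% of their 85-base words occur in other annotated genes. Mrps18a alone of them was lower in all 4 pairs of samples. Mrps30, which is also part of the large subunit despite its name, was at 50.8 ± 4.4 and 48.2 ± 6.2 CPM.

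Large and small subunit genes had nearly equal median fold changes. The median log2 fold change was −0.072 over the 48 large subunit genes tested, of which 39 lay below 0, and −0.078 over the 29 small subunit genes, of which 20 lay below 0. The large minus small difference of these medians was 0.0060. Taken within each sample, as the difference between the median centred log2 CPM of the subunits, it was −0.0015 ± 0.018 in DMSO and −0.024 ± 0.012 in IOX5 (SD, n = 4), with sample values from −0.027 to 0.013 and from −0.036 to −0.0074. On this measure IOX5 was lower than DMSO by a difference of −0.023, larger than the SD of 0.0155 within groups and opposite in sign to 0.0060, although the groups overlapped. The sign of the difference between the subunits thus depended on the measure. In a second grouping, Mrps18a and Mrps30 were counted in the large subunit, where structures place them, and Mrps36 in neither subunit. The medians were then −0.074 over 50 large subunit genes and −0.078 over 26 small subunit genes. Proteins shared with bacteria and proteins specific to mitochondria also had the same median, −0.075 over 46 and −0.075 over 31 genes. Leaving out members with overlapping exons or with a pseudogene of the same name kept 43 genes with a median of −0.071. Members with copies under other names stayed in, such as Mrpl22, which shares 15.3% of its words with Gm6997.

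The samples of a group differed more than the groups did, and both subunits differed together. Each gene was centred on its mean log2 CPM over the 8 samples, and the median over genes was taken in each sample. For the large subunit this was −0.010, 0.12, 0.035 and 0.036 in DMSO samples 1 to 4 and −0.10, −0.10, −0.12 and 0.15 in IOX5 samples 1 to 4. For the small subunit it was −0.0090, 0.14, 0.025 and 0.024 in DMSO and −0.093, −0.077, −0.091 and 0.18 in IOX5. IOX5 samples 1 to 3 were thus below all DMSO samples for both subunits, while IOX5 sample 4 was above all of them. The group means were 0.044 ± 0.052 and −0.044 ± 0.13 for the large subunit, and 0.046 ± 0.067 and −0.020 ± 0.13 for the small subunit (SD, n = 4). Together the members took 0.372% to 0.403% of the reads on genes in DMSO and 0.347% to 0.410% in IOX5, a summed level of 3857 ± 162 CPM and 3648 ± 324 CPM.

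**Figure D3:**
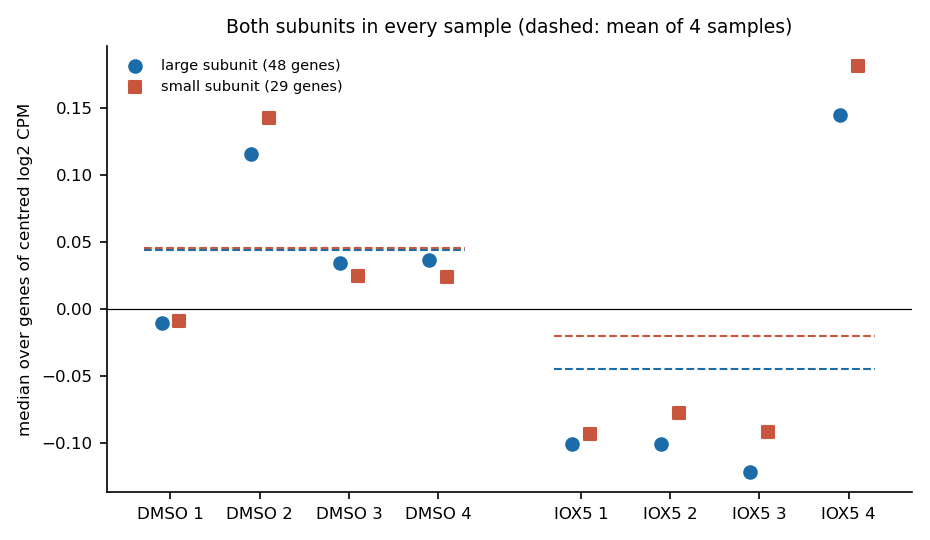
Median over genes of log2 CPM centred on the mean of the 8 samples, for the large (circles) and small (squares) subunit in every sample, with dashed lines at the mean of each group. The subunits follow each other closely, and IOX5 sample 4 stands at 0.15 and 0.18, above every other sample.

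IOX5 sample 4 was the highest of the 8 samples for 35 of the 77 members, against 13.3% of all genes, and DMSO sample 2 for 32 members, against 14.4% of all genes. The same IOX5 sample was the highest for 72 of the 81 cytosolic ribosomal protein genes tested (88.9%) and for 28 of the 36 nuclear genes of respiratory complex I (77.8%), larger shares than the 45.5% of the members. Among the mitochondrial translation factors it was the highest for 2 of 16. IOX5 samples 1, 2 and 3 were the lowest for 26, 22 and 18 of the 77 members, against 1451, 2544 and 1117 of all 12405 genes. Each share of the members was above the background, by the least for IOX5 sample 2 (28.6% against 20.5%). Without IOX5 sample 4 the median log2 fold change of the members was −0.13, with 67 below 0 and 2 called lower, Mrpl12 and Mrpl15 (adjusted p = 0.0373 and 0.0489, edgeR). These 2 are 2.6% of the members, and 2.64% of all genes were called lower without that sample, so the members' calls were at the background. With samples paired and both samples of number 4 left out, 11 members were lower (14.3%), where 8.48% of all genes were. Leaving out number 1, 2 or 3 in the same way gave 0 members. Without DMSO sample 2 the median was −0.048 and 0 were called. What sets IOX5 sample 4 and DMSO sample 2 apart was not tested.

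Over all samples, the groups did not overlap for 2 members that were lower with IOX5 (Mrps5 and Mrpl4), where 8.3% of all genes did so, and for 1 that was higher (Mrpl14), where 5.98% did. Without IOX5 sample 4 there were 20 members (26.0%) with all IOX5 samples below DMSO, where 13.6% of all genes did so. No other sample was left out for such a count. The members were most often highest in that sample, so leaving it out in itself favours this outcome, and no conclusion is drawn from it. When samples with the same number were compared, 8 members were lower with IOX5 in all 4 pairs, Mrpl1, Mrpl4, Mrpl27, Mrpl40, Mrpl47, Mrps5, Mrps10 and Mrps18a, and 3 were higher, Mrpl14, Mrpl52 and Mrps36. Among all genes 19.8% were lower and 21.4% higher in all 4 pairs, so both shares of the members were below the background. The median log2 ratio of the members was −0.052, −0.22 and −0.14 in pairs 1 to 3 and 0.12 in pair 4, with 55, 69, 64 and 12 members below 0. The fourth pair therefore went the opposite way to the other 3 for most members of both subunits.

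**Figure D4:**
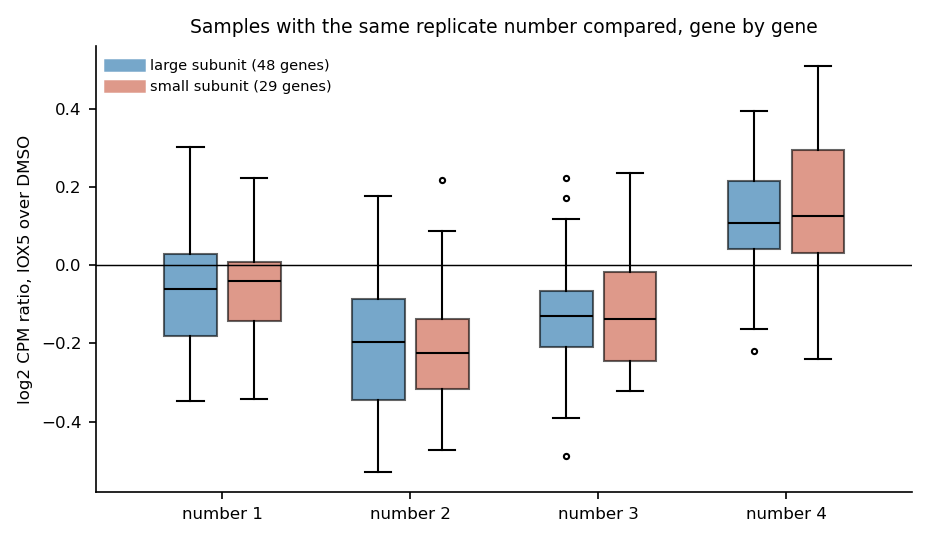
Log2 ratio of CPM between IOX5 and DMSO samples with the same replicate number, over 48 large and 29 small subunit genes; boxes span the quartiles with the median as a line, whiskers reach 1.5 times the box and circles lie beyond. Pairs 1 to 3 have medians below 0 in both subunits and pair 4 has medians of 0.11 and 0.13.

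The pairing of samples changed how many genes were called. With pairing, 1 member was lower (Mrps5) and 0 were higher, where 9.43% of all genes were lower and 11.2% higher (edgeR). Both shares of the members were again below the background. The members had a median exon length of 2533 bases against 4265 for all tested genes, and a similar GC content of 49.7% against 49.4%. When a smooth trend of counts with length and GC content was removed in each sample, the median of the members went to −0.13 and that of all genes to −0.031, with 71 of 77 members below 0. In this fit 0 members were called, where 1.85% of all genes were called lower. At an unadjusted p under 0.05 (edgeR), 23 of 77 members were lower, against 1845 of 12405 genes. With the trend removed and samples paired, 18 members were lower and 0 higher, where 14.6% of all genes were lower and 9.2% higher. They were 11 large subunit genes (Mrpl2, Mrpl4, Mrpl9, Mrpl12, Mrpl18, Mrpl27, Mrpl36, Mrpl40, Mrpl43, Mrpl46 and Mrpl47) and 7 small subunit genes by name (Mrps2, Mrps5, Mrps7, Mrps15, Mrps18a, Mrps26 and Mrps34). The number of members called lower thus ranged from 0 to 18 with the model, and the direction of the median was negative in each of these fits.

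Across the 77 members the log2 fold change had a Spearman's rho of 0.058 with GC content, −0.29 with exon length and −0.35 with CPM in DMSO. These are descriptions over genes that share the same libraries, not tests.

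Other genes of mitochondrial translation were described from lists written from general knowledge. Of 16 translation factors, 13 lay below 0 with a median of −0.085, and 0 were called without pairing. With pairing 2 of 16 (12.5%) fell, where 9.43% of all genes did. They were Gfm2 (log2 fold change −0.24, adjusted p = 0.0270, edgeR), which recycles ribosomes after termination, and Gfm1 (−0.21, adjusted p = 0.0437, edgeR), which moves the ribosome along the messenger. Gfm2 was at 52.5, 52.3, 56.0 and 52.1 CPM in DMSO and 46.4, 46.8, 44.6 and 41.9 CPM in IOX5, without overlap. Gfm1 was at 133, 148, 131 and 135 CPM in DMSO and 119, 113, 120 and 123 CPM in IOX5, also without overlap. In these genes IOX5 sample 4 lay with the other IOX5 samples.

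Of 27 genes for assembly of the mitochondrial ribosome and modification of its RNA, 17 lay below 0 with a median of −0.063, and 0 were called without pairing. With pairing 2 of 27 fell, a share below the 9.43% of all genes. They were the assembly GTPase Gtpbp10 (adjusted p = 0.0486, edgeR) and Rcc1l (adjusted p = 0.0487, edgeR), an assembly factor at 37.4, 42.9, 42.3 and 37.8 CPM in DMSO and 35.2, 31.4, 34.6 and 33.9 CPM in IOX5. Dhx30, an RNA helicase of mitochondrial RNA granules, had a log2 fold change of −0.16 ± 0.054 (adjusted p = 0.151, edgeR). Of 5 mitochondrial ribosomal proteins with other kinds of name 4 lay below 0, and Ptcd3 fell with pairing (log2 fold change −0.25, adjusted p = 0.0281, edgeR). Gadd45gip1, another of them, had a log2 fold change of −0.10. The 7 genes of mitochondrial transcription had a median of −0.023, with 0 called in either fit, and the values of Tfb2m and Mterf1b were −0.071 and −0.38.

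The mitochondrially encoded proteins, which this ribosome translates, lay on both sides of 0. Of 13, 10 were tested, with a median log2 fold change of 0.19, 6 above 0 and 4 below. Without pairing 0 were called, and with pairing 3 of 10 rose, where 11.2% of all genes did. Among them were mt-Cytb, the cytochrome b of complex III (log2 fold change 0.27, adjusted p = 0.0141, edgeR), and mt-Co1, a catalytic subunit of complex IV (0.22, adjusted p = 0.0382, edgeR). The level of mt-Cytb was 2400, 2487, 2692 and 2718 CPM in DMSO and 3068, 2934, 3321 and 3071 CPM in IOX5, without overlap. The third, mt-Co2, had far lower counts, at 9.56 ± 1.8 CPM in DMSO and 13.7 ± 1.7 in IOX5 (adjusted p = 0.0149 with pairing, edgeR). Counts were also low for mt-Co3 and mt-Atp6, at means of 2.23 and 2.89 CPM in DMSO. Whether these low counts reflect low expression was not tested. The lowest fold change was that of mt-Nd6, a complex I subunit, at 64.4 ± 5.0 CPM in DMSO and 52.7 ± 13 CPM in IOX5 (log2 fold change −0.29, adjusted p = 0.319, edgeR). It was called lower with pairing and the length and GC trend removed (adjusted p = 0.0336, edgeR). Reads of mitochondrial genes can also match nuclear copies, which makes their counts less certain. The libraries were selected for poly(A), and mitochondrial messengers carry short tails, so these levels need not follow their abundance.

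The 81 cytosolic ribosomal protein genes tested had a median log2 fold change of 0.048, and the 36 nuclear genes of respiratory complex I one of 0.060. With the trend of length and GC content removed these became −0.044 and −0.029, against −0.13 for the mitochondrial ribosome. The difference between the families was not tested.

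**Figure D5:**
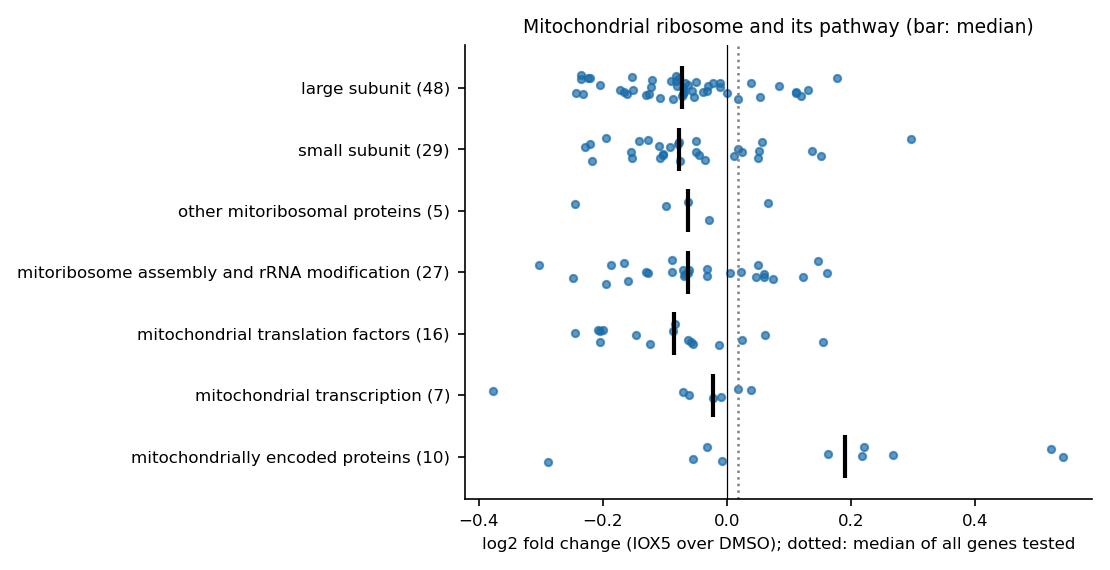
Log2 fold change of every tested gene of both subunits and of 5 lists of the mitochondrial translation pathway, with the number of genes in parentheses, bars at the medians and a dotted line at the median of all genes. The nuclear-encoded lists have medians between −0.085 and −0.023, and the mitochondrially encoded proteins one of 0.19, with 4 of 10 below 0; vertical position within a row is random.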

How the data were processed

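Read counts per gene, deposited by the authors for 8 libraries, were used as they stood. By the study's methods and the submitters' processing notes, the authors trimmed reads with cutadapt 1.18, mapped them to GRCm38 with HISAT2 2.2.1 and counted them with HTSeq 2.0.1. The 5 summary lines of each file, 20.6% to 22.6% of its total, were left out. Xist had 105071 reads and its antisense partner Tsix 21, as strand-specific counting gives. GENCODE M21 supplied symbols and exons for 54809 of 54838 genes (29 unmatched).

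Genes passing filterByExpr were tested with edgeR 4.0.16 (TMM factors, quasi-likelihood, Benjamini-Hochberg adjustment over 12405 genes). Count noise limits precision at 11351507 to 14116054 reads per sample. DESeq2 1.42.0, other scalings and filters, removal of a length and GC trend (mgcv 1.9.3) and leaving out samples were alternatives. CPM are TMM-scaled; log2 CPM used a prior count of 2. Exact permutation tests were two-sided over 70 assignments. Same-numbered samples deviated together (correlations 0.758, 0.744, 0.732 and 0.636). DMSO sample 4 correlated more with IOX5 sample 3 (0.685) than with IOX5 sample 4, so numbers 3 and 4 were not separated from each other. All same-number correlations were over 0.1, so a second fit that pairs them by number (replicate block) is printed where a call changes. No libraries agreed within sampling noise. The lowest chi-square per degree of freedom was 2.22, between DMSO samples 3 and 4, and the next lowest was 9.82, between IOX5 samples 3 and 4. DMSO samples 3 and 4 were thus the most alike, and whether they are independent samples was not tested.

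Members and lists were chosen with earlier results of these data known. Named members were those called, the 5 with the smallest p in each subunit, the 2 of opposite sign to the subunit median with the smallest p, the 3 highest and 3 lowest per kb, and a panel with known roles; in the other lists, genes called and the 2 with the smallest p. Mrps11, Mrpl53, Mrpl33, Mrpl20, Mrpl42, Mrps23, Gtpbp10, mt-Co2 and mt-Nd6, and members listed by a count, were named outside this rule, after their values were seen. In a simulation on 12405 genes for IOX5 against DMSO, edgeR recovered 80 of 100 genes changed by 1 on the log2 scale and 22 of 100 changed by 0.5, with 9 false calls. 1 of the cell type markers examined is not reported here.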

Additional observations from a re-analysis of the deposited data

Results flagged for a closer look

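Of 90 groups of 4 samples examined, 16 held a sample whose gap to the nearest other sample, as a part of the group's range, was beyond the critical value of Dixon's test. Chance flags about 1 in 20 such groups, or 4.5 here, and the members share the same libraries. IOX5 sample 4 stood above the other IOX5 samples in the medians of both subunits (0.15 and 0.18 in centred log2 CPM). The same sample stood apart for Mrpl9 (91.9 CPM), Mrpl14 (23.2 CPM), Mrpl12 (133 CPM), Mrpl11 (54.5 CPM) and Mrps27 (49.8 CPM). DMSO sample 2 stood above the other DMSO samples for Mrps26 (82.5 CPM), Mrpl18 (163 CPM), Mrpl11 (49.7 CPM) and Mrps22 (37.6 CPM). Single samples also stood apart for Mrps5 (IOX5 sample 3, 52.2 CPM), Mrpl44 (IOX5 sample 2, 42.0 CPM, lowest of its group), Mrpl45 (DMSO sample 4, 68.3 CPM), Gfm2 (DMSO sample 3, 56.0 CPM) and Tfb2m (DMSO sample 3, 28.7 CPM).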

How the results depend on the processing

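The median log2 fold change of the members was negative under every alternative run, from −0.14 to −0.015, the last with the replicate block and both samples of number 2 left out. No alternative called a member higher. Members called lower numbered 0, but 1 with the replicate block and 18 with the replicate block and the length and GC trend removed. Leaving out samples gave 0 to 11, with 2 without IOX5 replicate 4, and 11 with the replicate block and both samples of number 4 left out, where 1058 of 12474 genes were lower, an alternative chosen after seeing the data along with the other numbers. The large minus small median log2 fold change was −0.013 with the replicate block and trend removed, −0.016 with means in place of medians, and −0.012 to 0.030 when samples were left out. The sign turned with the trend removed, without and with the replicate block, for Mrpl14 (−0.013 and −0.0076), Mrpl34 (−0.061 and −0.063) and Mrps21 (−0.024 and −0.023). It turned with upper-quartile factors and with at least 10 counts in every sample for Mrpl11 (0.0071 and 0.0025) and Mrpl45 (0.0065 and 0.0018). Leaving out samples gave log2 fold changes of −0.093 to 0.025 for Mrpl10, −0.12 to 0.074 for Mrpl11, −0.20 to 0.056 for Mrpl23, −0.11 to 0.0067 for Mrpl44, −0.11 to 0.045 for Mrpl45, −0.20 to 0.0029 for Mrps12, −0.12 to 0.020 for Mrps18c and −0.14 to 0.082 for Mrps22. The cause was not tested. Of 43 genes named by the rule, 32 had the same sign under every alternative. Added to the fit over all samples with no trend removed, the replicate block changed no call among members other than that of Mrps5. Small fold changes, at most 0.30 in size, and 4 samples a group limit what could be called.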
